A study of Mus musculus with 24 samples.

Results

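The Trim12 and Trim30 genes form a block of related genes on mouse chromosome 7, and their signal was read in splenic B cells of NOD and B6 mice. All probe sets of the array whose annotation names Trim12a, Trim12c, Trim30a, Trim30b, Trim30d or Trim34a were taken, which gave 14 of 45101 probe sets. Of these, 10 name a single gene and 4 name a second gene as well. The letters A and B order the probe sets of a gene by the size of their strain difference, and a slash joins the genes of a probe set that names more than 1. The genes were chosen because a probe set of Trim12a and one of Trim12c had the lowest NOD signal relative to B6, so the strain difference of the members is given as a description and without a test.

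TRIM proteins carry a RING domain that can attach ubiquitin to other proteins, followed by a B-box and a coiled coil, and many end in a SPRY domain that binds a target. In primates TRIM5 binds the capsid of incoming retroviruses. The mouse Trim12 and Trim30 genes are among its close relatives in the mouse, where a gene named Trim5 lies in the same block. Several genes of the family are induced by interferon, and Trim30a is known to dampen Toll-like receptor signalling through the adaptors TAB2 and TAB3. The genes follow each other, by NCBI's annotation of GRCm38.p6, as Trim6, Trim34a, Trim5, Trim12a, Trim34b, Trim12c, the gene model Gm38525, Trim30b, Trim30c, Trim30a and Trim30d.

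The cells were splenic B cells of female mice aged 7 weeks, from NOD/ShiLtJ, a strain that develops autoimmune diabetes spontaneously, and C57BL/6/J, called B6 here. Spleens of 8 mice were pooled for each strain and experiment, T cells and CD11b-positive cells were depleted, and 6 subsets were sorted. These were the transitional T1, T2FO, T3 and T2MZ cells and the mature follicular (FO) and marginal zone (MZ) cells. The experiment was done 2 times, which gave 2 arrays for each of 12 groups, 24 in all, from 4 pools, and the purity before the sort is given as a lower limit only for all B cells together. The p-values between subsets therefore measure the spread between 2 arrays per group, and those between strains the spread between 2 pools per strain. Arrays of 1 pool share their mice.

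The values are log2 values centred for each probe set on its median over the 24 arrays. A value of 0 is therefore no level, values show differences between arrays only, and values of different probe sets cannot be set against each other as levels. Where all arrays of a strain lie on one side, the centring alone places the strains at mirrored distances from 0. In bulk RNA, fewer cells with a transcript and less transcript per cell cannot be told apart. The arrays were designed on reference mouse sequence, so a lower signal in NOD need not be less transcript. The gate transcripts go against the subset labels of NOD: Cr2, which encodes CD21, was -1.72 ± 0.15 (SD, n = 2) in B6 T1 and 1.20 ± 0.06 in the NOD arrays labelled T1, and Cd93, carried by immature B cells, was 3.06 ± 0.11 and -2.09 ± 0.07. The NOD groups are for this reason called by their labels only, and strains are compared over subsets or over all 36 pairs of 1 NOD and 1 B6 group, which need no NOD subset name. The array's control for the 5' end of beta-actin lay between -0.54 and 0.79 in NOD. In B6 it lay between -4.04 and -3.27 in 6 arrays, between -1.36 and -0.77 in 4, and at 0.42 and 0.47 in the other 2, which are replicate 2 of MZ and of FO. The median of 21 probe sets of 13 myeloid genes was 2.34 and 1.84 in the NOD arrays labelled FO and 1.37 in B6 MZ replicate 2, and between -0.27 and 0.21 in the other 21 arrays.

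The promoter windows of the members are shown first, since the genes are described below beside interferon response genes. All 6 genes matched the RefSeq promoter table (build GRCm38.p6), with 7 windows of 300 bases that run from 250 bases before to 50 after an annotated start. An interferon-stimulated response element (ISRE) is a known binding site of interferon-activated factors, and its core was searched as GAAA, any 2 bases and GAAA again on both strands, a motif chosen with the sequences in view. It was present in 6 of the 7 windows and in 5 of the 6 genes, with Trim30b as the exception. Over all genes of the table, 3.99% had it in a window of the same length. The member windows are near-copies of each other in part, so these matches are not independent, and a match of letters is a description and not a shown binding site. Capitals mark the match, which in every window lies on the other strand and so begins with TTTC. The windows of the 2 genes with the lowest NOD signal, both on the minus strand, are Trim12a (chr7:104315446-104315745) and Trim12c (chr7:104353300-104353599), and those of the Trim30 pair that moved together among B6 arrays, also on the minus strand, are Trim30a (chr7:104465144-104465443) and Trim30d (chr7:104507800-104508099).
Trim12a: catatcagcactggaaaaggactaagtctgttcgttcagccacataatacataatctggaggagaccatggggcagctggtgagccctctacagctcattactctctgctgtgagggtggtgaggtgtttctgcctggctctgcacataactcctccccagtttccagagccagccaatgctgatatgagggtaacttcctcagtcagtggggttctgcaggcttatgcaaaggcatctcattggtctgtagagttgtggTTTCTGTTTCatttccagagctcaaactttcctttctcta
Trim12c: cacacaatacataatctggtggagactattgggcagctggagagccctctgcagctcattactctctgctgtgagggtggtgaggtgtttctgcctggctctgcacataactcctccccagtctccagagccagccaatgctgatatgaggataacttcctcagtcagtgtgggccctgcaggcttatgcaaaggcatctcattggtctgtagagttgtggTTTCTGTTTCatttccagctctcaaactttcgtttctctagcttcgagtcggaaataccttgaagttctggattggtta
Trim30a: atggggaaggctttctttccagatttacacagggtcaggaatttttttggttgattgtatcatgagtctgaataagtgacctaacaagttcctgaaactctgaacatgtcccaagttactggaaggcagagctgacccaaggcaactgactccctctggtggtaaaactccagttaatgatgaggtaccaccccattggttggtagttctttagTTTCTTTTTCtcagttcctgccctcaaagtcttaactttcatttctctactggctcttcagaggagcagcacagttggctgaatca
Trim30d: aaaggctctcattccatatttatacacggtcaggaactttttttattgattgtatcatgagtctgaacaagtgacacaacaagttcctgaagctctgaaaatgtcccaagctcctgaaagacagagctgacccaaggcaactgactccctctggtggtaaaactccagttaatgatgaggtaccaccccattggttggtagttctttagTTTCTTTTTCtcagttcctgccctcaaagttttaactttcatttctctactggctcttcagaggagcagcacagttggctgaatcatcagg

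Trim12a and Trim12c share TTTCTGTTTC, and their windows were identical at 247 of 260 aligned bases (95.0%). Trim30a and Trim30d share TTTCTTTTTC, with 276 of 295 aligned bases identical (93.6%). Trim34a has TTTCAGTTTC. No window of the members held the interferon gamma element TTCNNNGAA (9.55% of all genes) or GGG, any 3 bases and TTCC, a core bound by NF-kB (6.31%), on either strand.

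Trim12a, a Trim5-like gene, had the lowest NOD signal relative to B6 of all probe sets, in Trim12a-A. Its values in B6 were 3.10 and 3.17 in T1, 3.13 and 2.85 in T2FO, 3.13 and 3.09 in T3, 3.55 and 4.13 in FO, 3.18 and 3.21 in T2MZ, and 3.34 and 4.38 in MZ, replicate 1 first. In NOD they were -3.51 and -3.36 in the arrays labelled T1, -3.36 and -2.85 in T2FO, -3.15 and -3.06 in T3, -3.17 and -3.01 in FO, -3.19 and -3.25 in T2MZ, and -3.07 and -3.04 in MZ. The lowest B6 array stood 5.70 log2 units above the highest NOD array, and no subset of either strain came near the other strain. Over subsets NOD minus B6 was -6.52 log2 units, a signal ratio of 91.9 between B6 and NOD. The difference lay between -7.30 and -6.04 over the 36 pairs of groups.

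The other Trim12a probe set, Trim12a-B, did not share this. It ran from -0.36 over a median of 0.35 to 1.31 in B6, and from -0.46 over -0.27 to 0.20 in NOD, so the strains overlapped. Its strain difference was -0.63 log2 units, and over the pairs of groups it lay between -1.16 and -0.03. The probe sets of Trim12a therefore differ between the strains by very different amounts, and their mean gives -3.57.

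Trim12c, its neighbour and near-copy, which has been reported to act with TRAF6 in interferon and NF-kB induction, showed the same contrast between probe sets. In Trim12c-A the B6 values were 2.94 and 3.27 in T1, 2.98 and 3.18 in T2FO, 3.22 and 3.25 in T3, 3.19 and 2.09 in FO, 2.75 and 2.99 in T2MZ, and 2.63 and 2.42 in MZ. In NOD this probe set had a lowest value of -3.59, a median of -3.03 and a highest value of -2.09. The strains were apart by 4.17 log2 units at the nearest arrays, and over subsets NOD minus B6 was -5.90 (ratio 59.7), with -6.50 to -5.17 over the pairs of groups. The second probe set, Trim12c-B, ran from -0.13 over 0.48 to 2.18 in B6 and from -1.02 over -0.41 to 0.43 in NOD. Its strains overlapped, and its difference over subsets was -1.09.

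These were the 2 largest decreases among 45037 probe sets that are not controls. The next ones were an unnamed probe set (-5.48), Ifi213, an interferon-inducible gene (-5.36), and a further unnamed one (-5.34). Only 0.0178% of all probe sets were lower in NOD by over 5 log2 units.

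**Figure D1:**
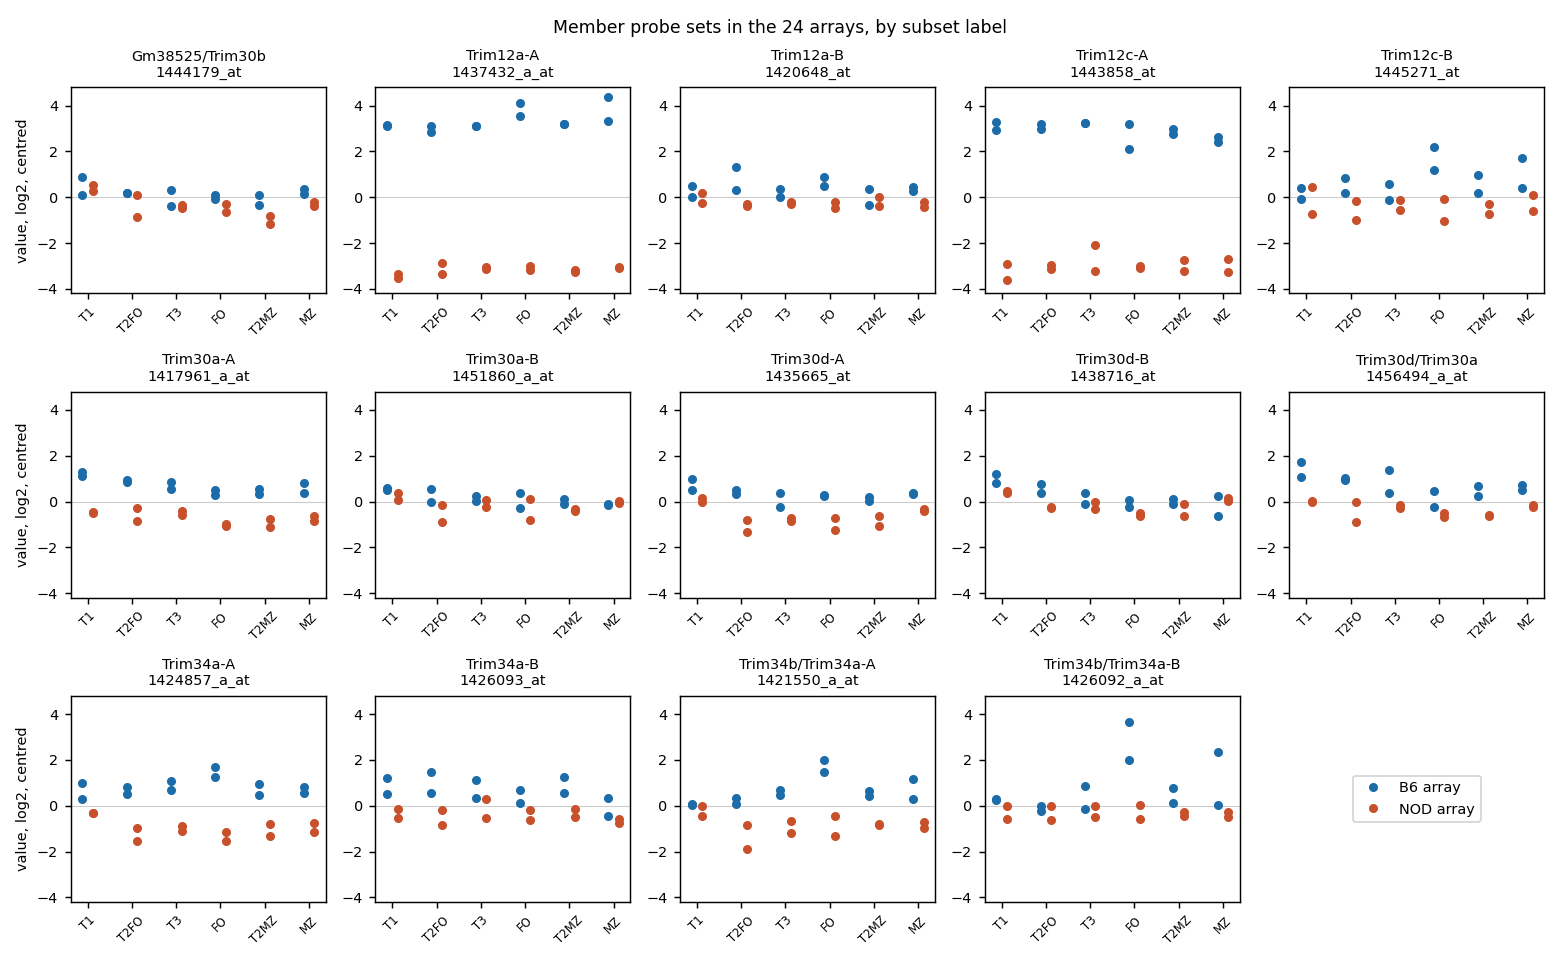
Centred log2 value (vertical axis) of each of the 14 probe sets in the 24 arrays by subset label (horizontal axis), with B6 in blue and NOD in orange, 1 point per array. Trim12a-A and Trim12c-A stand apart by strain in every subset (nearest arrays 5.70 and 4.17 log2 units apart), and their other probe sets overlap between strains.

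Trim30a, the brake on Toll-like receptor signalling, was lower in NOD in every array for Trim30a-A. Its B6 values were 1.11 and 1.30 in T1, 0.83 and 0.95 in T2FO, 0.53 and 0.83 in T3, 0.52 and 0.30 in FO, 0.32 and 0.54 in T2MZ, and 0.79 and 0.38 in MZ. In NOD its lowest value was -1.10, its median -0.71 and its highest -0.30. The strains did not overlap, with a gap of 0.60, and the difference over subsets was -1.42 log2 units (ratio 2.67). The other Trim30a probe set, Trim30a-B, ran from -0.27 to 0.59 in B6 and from -0.88 to 0.39 in NOD, and differed by -0.33. A probe set that names Trim30d with Trim30a, Trim30d/Trim30a, differed by -1.09, from -0.25 to 1.71 in B6 and from -0.91 to 0.04 in NOD.

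Trim30d and Trim30b, paralogs of Trim30a, differed less. Trim30d was -0.99 over subsets in Trim30d-A, with B6 between -0.23 and 0.98 and NOD between -1.32 and 0.14. In Trim30d-B it was -0.39, and the NOD group was lower in 29 of the 36 pairs. Trim30b was measured only by Gm38525/Trim30b, which names the gene model Gm38525 as well, and differed by -0.48 with NOD lower in 31 of 36 pairs. In all 3 of these probe sets the arrays of the strains overlapped.

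Trim34a, an interferon-inducible relative at the near end of the block, was lower in NOD in 4 probe sets. In Trim34a-A B6 ran from 0.31 over 0.81 to 1.69 and NOD from -1.52 over -1.04 to -0.31, so no arrays overlapped, and the difference was -1.83 (ratio 3.55). The probe set Trim34b/Trim34a-A names Trim34b with Trim34a. It had B6 values between 0.02 and 1.98 and NOD values between -1.88 and -0.02, a gap of only 0.03 and a difference of -1.49. The other probe set that names both genes, Trim34b/Trim34a-B, ran from -0.21 to 3.67 in B6 and from -0.63 to 0.04 in NOD, with a difference of -1.14. In Trim34a-B the difference was -1.04, with B6 between -0.43 and 1.48 and NOD between -0.82 and 0.30. Signal of Trim34a and Trim34b cannot be told apart where a probe set names both.

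Counted together, all 14 probe sets were lower in NOD over subsets, where 58.3% of all probe sets were. By over 1 log2 unit 9 of 14 were lower, against 1.42% of all. In 5 of 14 all 12 NOD arrays lay below all 12 B6 arrays, against 0.89% of all, and in none did all NOD arrays lie above all B6 arrays, against 1.51% of all. The median difference of the members was -1.09, and that of all probe sets was -0.03. The members were chosen on this contrast, so these shares describe the choice. In the limma fit of NOD minus B6 over subsets 3.02% of all probe sets passed an adjusted p of 0.05 (Benjamini-Hochberg), 1.38% as lower in NOD.

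**Figure D2:**
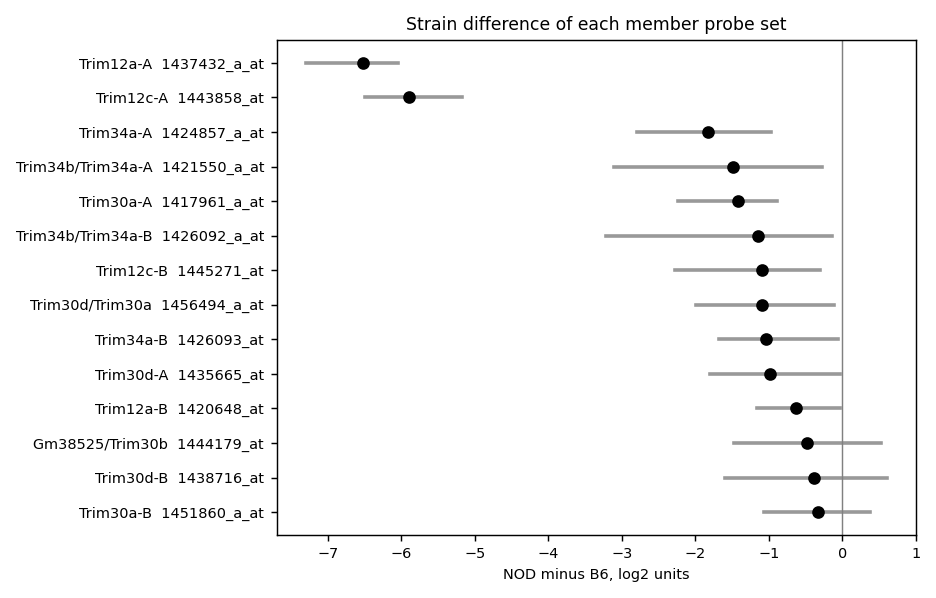
NOD minus B6 over subsets in log2 units (horizontal axis) for each member probe set (points), with the range over the 36 pairs of 1 NOD and 1 B6 group (grey bars). The probe sets Trim12a-A and Trim12c-A lie at -6.52 and -5.90, the other 12 lie between -1.83 and -0.33, and the range of 3 probe sets crosses 0.

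The strain difference was read again against B6 arrays of different 5' control signal, since that signal differed between strains. Trim12a-A differed by -6.37 against the 6 B6 arrays lowest in the control, by -6.30 against the 4 in between, and by -7.42 against the 2 that lie within the NOD range. Trim12c-A gave -6.08, -5.97 and -5.24. Against the 2 arrays where the control was alike, replicate 2 of FO and of MZ, Trim12a-A thus differed by more than over all arrays and Trim12c-A by less. Both still differed by over 5 log2 units. Trim30a-A gave -1.54, -1.41 and -1.06, and Trim34a-A gave -2.04, -1.48 and -1.89. Other members moved more. The probe set Trim34b/Trim34a-B for Trim34b and Trim34a gave -0.97, -0.31 and -3.31, and Trim12c-B for Trim12c gave -1.12, -0.44 and -2.34. Trim30d-B turned from -0.50 and -0.55 to 0.27, and Trim34a-B shrank from -0.90 and -1.66 to -0.24. The sets of B6 arrays also differ in subset, since the 4 in between are replicate 1 of T1, T2FO, T3 and T2MZ. Control and subset are therefore mixed in these differences, as is the high myeloid signal of MZ replicate 2. Trim34b/Trim34a-B stood at 2.01 in FO replicate 1 and at 0.04 in MZ replicate 1, where the control was -3.51 and -3.47. The part of the 5' signal in these differences was not tested.

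**Figure D3:**
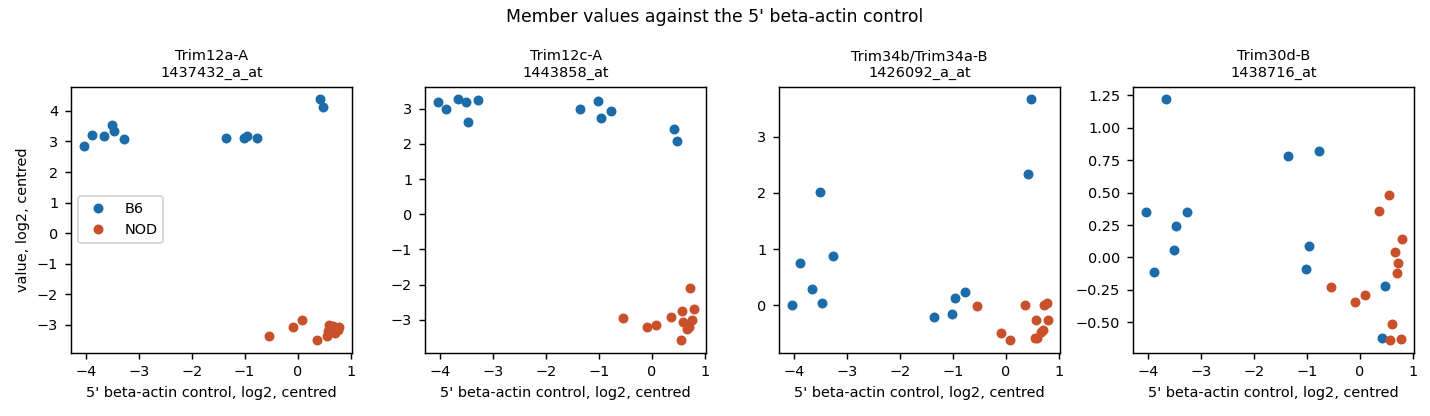
Centred log2 value of 4 member probe sets (vertical axis) against the 5' beta-actin control (horizontal axis, centred log2) in 12 B6 (blue) and 12 NOD (orange) arrays. Trim12a-A and Trim12c-A stay apart by strain in all arrays, but only 2 B6 arrays lie within the NOD range of the control. These 2, replicate 2 of MZ and of FO with a control of 0.42 and 0.47, have the highest values of Trim34b/Trim34a-B (2.34 and 3.67).

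Replicates of B6 differed as well. In FO, where the control was higher in replicate 2, replicate 2 was above replicate 1 by 0.58 for Trim12a-A, by 0.97 for Trim12c-B and by 1.66 for Trim34b/Trim34a-B. In MZ the same comparison gave 1.04, 1.31 and 2.30. Trim12c-A went the other way, with -1.11 in FO and -0.21 in MZ. In the other 4 subsets the control was lower in replicate 2, yet Trim12c-B was again higher there, from -0.09 to 0.39 in T1, 0.20 to 0.82 in T2FO, -0.13 to 0.57 in T3 and 0.20 to 0.95 in T2MZ. Trim34b/Trim34a-B was also higher in replicate 2 of these 4 subsets, as in T3 (-0.16 and 0.88). For Trim12c-B and Trim34b/Trim34a-B replicate 2 was thus higher whether the control rose or fell. Trim12c-A was also higher in replicate 2 of these 4 subsets, as in T1 (2.94 and 3.27), and so went opposite to the control in all 6. The part of the control in these differences was not tested. Over the 12 B6 arrays, Pearson's r with the control was 0.61 for Trim12a-A, -0.67 for Trim12c-A, 0.23 for Trim12c-B and 0.42 for Trim34b/Trim34a-B, which describes arrays that share pools and subsets. The probe sets of Trim12a and Trim12c with the lowest NOD signal correlated at r = -0.78 among the B6 arrays (n = 12), although both were far lower in NOD. The 2 B6 arrays with a control above 0 had the highest values of Trim12a-A (4.13 and 4.38) and the lowest of Trim12c-A (2.09 and 2.42). The correlation without them was not computed.

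Whether the members differ between subsets is a question the choice of members did not use. In B6, none of the 14 probe sets passed limma's F test across its 6 sorted populations (adjusted by Benjamini-Hochberg over 45037 probe sets), where 1.41% of all probe sets passed. Unadjusted, 6 of 14 had p under 0.05, as 9.07% of all probe sets had, and the lowest adjusted p was 0.118, for Trim30d-B. With the 5' minus 3' beta-actin control as a covariate, Trim30a-A, Trim30d-B and Trim34a-A passed (limma, adjusted p = 0.0428, 0.0423 and 0.0444). Without MZ replicate 1, Trim12a-A, Trim30d-B and Trim34b/Trim34a-B passed (limma, adjusted p = 0.0203, 0.0284 and 0.017). Trim34b/Trim34a-B also passed without MZ replicate 2 and with the pool as a random block (limma, adjusted p = 0.0351 and 0.0383).

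Every probe set of the Trim30 genes had its highest B6 mean in T1, and T1 minus FO was largest in Trim30a-A, Trim30d-B and Trim30d/Trim30a. Trim30a-A was 1.20 ± 0.14 (SD, n = 2) in T1, 0.89 ± 0.08 in T2FO, 0.68 ± 0.21 in T3, 0.58 ± 0.29 in MZ, 0.43 ± 0.16 in T2MZ and 0.41 ± 0.15 in FO. Both T1 arrays lay above all other B6 arrays, and the arrays of T3, MZ, T2MZ and FO overlapped their neighbours in this order. The T1 minus FO difference was 0.80 ± 0.20 log2 units (SE), with an adjusted p of 0.0788 (limma). Trim30d-B was 1.02 ± 0.28 in T1, 0.57 ± 0.30 in T2FO, 0.13 ± 0.31 in T3, -0.01 ± 0.14 in T2MZ, -0.08 ± 0.20 in FO and -0.19 ± 0.61 in MZ, and T1 minus FO was 1.10 ± 0.26 (limma, adjusted p = 0.0714). For Trim30d/Trim30a, which names both, the difference was 1.28 ± 0.34 (limma, adjusted p = 0.108). The other Trim30 probe sets differed less. Trim30d-A gave 0.47 ± 0.24, Trim30a-B 0.50 ± 0.30 and Gm38525/Trim30b 0.48 ± 0.31 (limma, adjusted p = 0.53, 0.65 and 0.701). In Trim30a-B a T2FO array (0.54) lay between the T1 arrays (0.52 and 0.59). The 3 probe sets named first are not independent, since the genes are near-copies and one probe set names both. Their values correlated over the 12 B6 arrays, with r of 0.89 between Trim30a-A and Trim30d-B and 0.90 between Trim30a-A and Trim30d/Trim30a. Trim30d-A gave a lower r, 0.72 with Trim30a-A and 0.54 with Trim30a-B, and Trim30a-B with Trim30d-B gave 0.70.

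The probe set Trim34b/Trim34a-A for Trim34b and Trim34a had the opposite order and was the one member that passed a test between B6 subsets in the fit over 12 groups. Its values were 0.02 and 0.07 in T1, 0.35 and 0.06 in T2FO, 0.49 and 0.67 in T3, 1.48 and 1.98 in FO, 0.65 and 0.44 in T2MZ, and 0.29 and 1.19 in MZ. Both FO arrays were above all other B6 arrays. T1 minus FO was -1.69 ± 0.36 log2 units (SE, limma with Benjamini-Hochberg adjustment, adjusted p = 0.0383). The call was lost with any of the 4 arrays left out, with estimates of -1.66 and -1.72 without T1 replicate 1 and 2 (limma, adjusted p = 0.286 and 0.14) and of -1.94 and -1.44 without FO replicate 1 and 2 (0.0645 and 0.328). It was also lost with B6 arrays only and after quantile normalization (limma, adjusted p = 0.1 and 0.169), and over all alternatives the adjusted p of limma lay between 0.00638 and 0.328. The FO arrays differ in the 5' control, -3.51 in replicate 1 and 0.47 in replicate 2, and with the 5' minus 3' control as a covariate the difference was -1.62 (limma, adjusted p = 0.0131). In the second probe set for both genes, Trim34b/Trim34a-B, T1 minus FO was -2.58 ± 0.62 (limma, adjusted p = 0.0714), and in Trim34a-A it was -0.81 ± 0.28 (0.261), but in Trim34a-B it was 0.45 ± 0.42 (0.827).

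Of the 14 probe sets, 1 was called in T1 minus FO, against 1.01% of all probe sets (limma, adjusted p under 0.05), and 8 had an unadjusted p under 0.05, against 10.2% of all. Their median was 0.46, against 0.02 for all probe sets, with 8 higher and 6 lower in T1. The FO arrays are shared by T1 minus FO and MZ minus FO. In MZ minus FO none of the 14 was called, against 0.564% of all (0.191% as lower in MZ), and 3 had an unadjusted p under 0.05 (limma), against 6.04% of all. The median was -0.15, against 0.00. The largest MZ minus FO difference was that of Trim34b/Trim34a-B, -1.66 ± 0.62, where the MZ arrays stood at 0.04 and 2.34 and the second of them is the one with the high myeloid markers. The part of other cells in it was not tested. Trim12a-A differed by 0.02 ± 0.27 in MZ minus FO and by -0.71 ± 0.27 in T1 minus FO (limma, adjusted p = 0.324), and Trim12c-A by -0.12 ± 0.37 and 0.47 ± 0.37, none of them called.

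**Figure D4:**
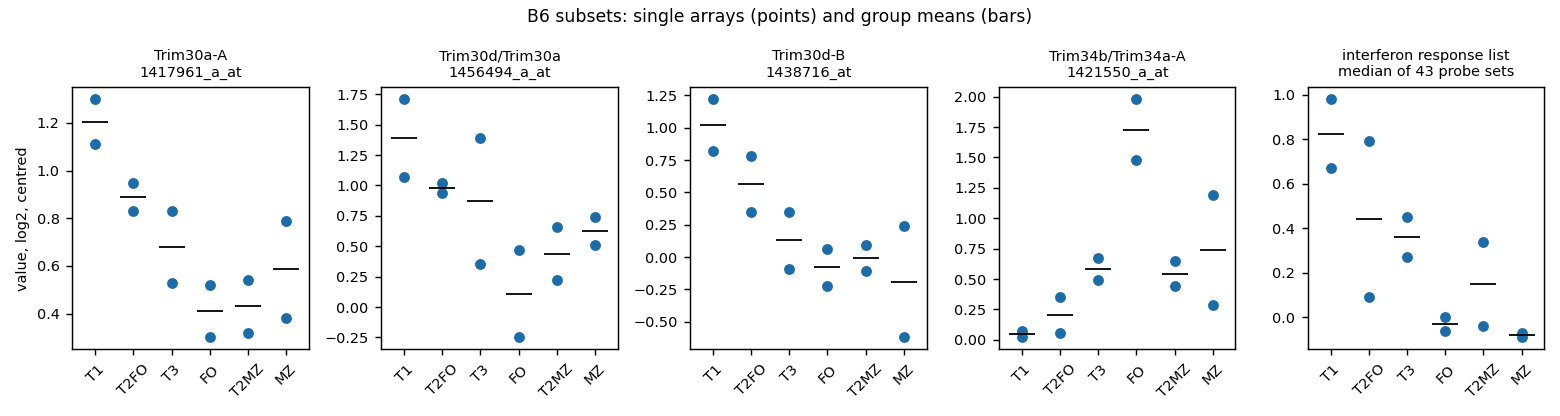
Centred log2 values of 4 member probe sets and the array median of the interferon response list (vertical axes, each panel on its own scale) in the 6 B6 subsets, with single arrays as points and the mean of 2 as a bar. The 3 Trim30 probe sets shown and the interferon list have their highest means in T1, and Trim34b/Trim34a-A is highest in FO (1.48 and 1.98).

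Among the 6 NOD groups, a comparison that does not need the subset names, none of the 14 probe sets passed the F test (limma, adjusted p under 0.05), where 1.77% of all did, and 4 had an unadjusted p under 0.05, against 7.6% of all. The lowest adjusted p was 0.0935, for Trim30d-A. It stood at 0.14 and -0.04 in the NOD arrays labelled T1 and at -0.40 and -0.32 in those labelled MZ. The other 8 NOD arrays lay lower, with values of -0.80 and -1.32 in the group labelled T2FO and -0.72 and -1.24 in FO. Under quantile normalization this probe set passed (limma, adjusted p = 0.00699), as did Trim30a-A (0.00462) and Trim34a-A (0.0163), and with the covariate Trim30d-A and Trim34a-A did (limma, adjusted p = 0.0392 and 0.0414). Trim34a-A was also highest in the NOD arrays labelled T1, at -0.31 and -0.32, against -1.52 to -0.77 in the other 10. Among the NOD arrays Trim34a-A and Trim30d-A correlated at r = 0.91 (n = 12), the highest r between members there. Trim34a-A gave 0.78 with Trim30d-B, but Trim34a-B gave 0.06 with Trim30d-A and -0.27 with Trim30d-B. Among the B6 arrays Trim30a-A and Trim34b/Trim34a-A were opposed (r = -0.75). Other such pairs in B6 were less so. Trim30a-A gave -0.55 with Trim34b/Trim34a-B, -0.17 with Trim34a-A and 0.22 with Trim34a-B, and Trim30a-B gave -0.27 with Trim34b/Trim34a-A.

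The genes around the members were read for the same strain contrast. They were Trim5 inside the block and, on either side, the first 15 genes that have a probe set naming them alone. Genes without such a probe set were skipped, so these are not all the adjacent genes, and distances were not read. Of their 51 probe sets of 31 genes, 3 fell in NOD and none rose (limma on pool means, adjusted p under 0.05), where 1.38% of all probe sets fell. The 3 that fell were Trim68, a more distant TRIM gene (-0.92 ± 0.13, adjusted p = 0.0455), Fam160a2 (-0.70 ± 0.10, 0.0476) and Dnhd1 (-0.87 ± 0.11, 0.0403). With either NOD pool left out no probe set of the array was called between strains, so these calls and those between strains given below rest on both NOD pools. The pools were taken from the replicate numbers, which the B6 arrays do not bear out for every subset. In none of the 3 were all NOD arrays below all B6 arrays. Trim5, between Trim34a and Trim12a, differed by -0.31 ± 0.10 and was not called (adjusted p = 0.217), and Trim6, next to Trim34a, by -0.05 ± 0.09 and -0.01 ± 0.09 in its 2 probe sets (limma). The median over these neighbours was -0.07. Fam160a2 had 2 other probe sets (-0.17 and 0.38) and Dnhd1 1 other (0.21), none of them called. Of the 31 genes several encode olfactory receptors, and centred values do not show whether their signal was above background.

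**Figure D5:**
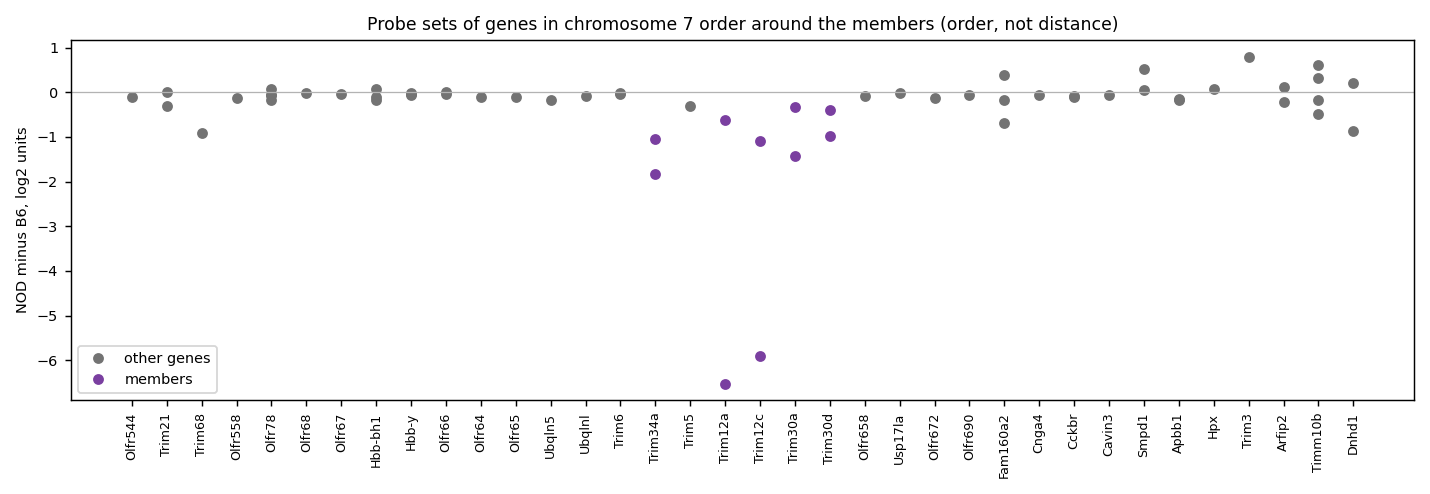
NOD minus B6 over subsets in log2 units (vertical axis) for probe sets naming 1 gene, in the order of the genes on chromosome 7 (horizontal axis, order and not distance), with members in purple and other genes in grey. The other genes lie between -0.92 and 0.80, and the members between -6.52 and -0.33.

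Over the TRIM family as a whole, 1 of 101 probe sets of 53 other TRIM genes was lower in NOD, again Trim68, and none was higher (limma, adjusted p under 0.05), where 1.38% of all probe sets were lower and 1.64% higher. That share is near the background. The family median was -0.04. In B6, Trim2 was higher in T1 than in FO by 1.15 ± 0.21 (limma, adjusted p = 0.0166), and no other of the 101 was called in T1 minus FO or MZ minus FO.

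Interferon response genes, many of which carry ISRE elements, were read beside the members. In T1 minus FO of B6, 3 of 43 probe sets of 27 genes rose and none fell (limma, adjusted p under 0.05, where 0.548% of all probe sets rose), namely the antiviral gene Rsad2 in both of its probe sets (2.73 ± 0.32 and 2.79 ± 0.46) and Oas2, a sensor of double-stranded RNA (1.93 ± 0.42). The list median was 0.68, against 0.02 over all probe sets. The array median of the list was 0.98 and 0.67 in T1 and -0.06 and 0.00 in FO. Between the strains 5 of the 43 fell in NOD, where 1.38% of all probe sets did, and 1 rose. The list had a median of -0.36, against -0.03 over all probe sets. Those that fell were Rsad2 in both probe sets (-2.73 ± 0.12 and -1.60 ± 0.16), the RNA sensor Ifih1 (-1.71 ± 0.16), Rtp4 (-2.04 ± 0.26) and Cmpk2 (-1.51 ± 0.21), and Stat2, a transcription factor activated by type I interferon, rose (1.10 ± 0.15, where 1.64% of all probe sets rose). Cmpk2 and Stat2 were named after their values were seen. The adjusted p of these 6 probe sets lay between 0.0104 and 0.0474 (limma on pool means). Any other probe set of Oas2, Ifih1, Rtp4, Cmpk2 or Stat2 was not called in the comparison given for that gene.

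Of 62 probe sets of 22 Toll-like receptor and NF-kB genes, among them the known Trim30a targets Tab2 and Tab3, 2 rose in NOD and none fell, where 1.64% of all probe sets rose and 1.38% fell: Irf3 (2.00 ± 0.17, adjusted p = 0.0224) and the kinase gene Ikbkb (1.49 ± 0.15, adjusted p = 0.0255, limma on pool means). The values are those of the called probe sets, and any other probe set of Irf3 or Ikbkb did not pass. Tab2 and Tab3 did not pass. In B6, the same probe set of Ikbkb was lower in T1 than in FO (-1.25 ± 0.28, limma, adjusted p = 0.0475).

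The genes with a probe set most like Trim12a-A over the 24 arrays were Vcp (r = 0.993), the interferon-inducible Ifi209 (0.987), Arhgap26 (0.985), Rpl7l1 (0.983) and A630001G21Rik (0.982). Here and for Trim30a-A below, each gene stands by its most similar probe set, and any others it has were not read. In each of these probe sets all NOD arrays lay below all B6 arrays, as in 0.89% of all probe sets. Trim12a-A was chosen for its strain difference, so these r values largely restate the contrast between strains. That probe set of Vcp, for one, lay between 1.69 and 2.89 in B6 and between -2.43 and -1.69 in NOD. Within the 12 B6 arrays, the genes most like Trim30a-A were Gpatch2 (r = 0.950), Zfp106 (0.943), Ube2h (0.932), Rsad2 (0.932) and Ogfrl1 (0.923). Rsad2 in that probe set ran from -0.04 to 3.72 in B6 and from -1.69 to 0.03 in NOD. These are the highest correlations among all probe sets that name 1 gene and no member, over arrays that share pools and subsets.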

How the data were processed

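RNA of sorted B cells was amplified in a 2-cycle labelling primed from the poly(A) tail and hybridised to Affymetrix mouse arrays, per the labels' protocols. Per the submitters' processing notes, RMA produced the deposited log2 values. Neither its version nor the log base is stated in the labels, and base 2 was assumed. Each probe set was found centred on its median over the arrays (largest median 5e-07 in size), so no filter on dim probe sets was possible.

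Of 45101 probe sets, 64 controls were left out of tests. Genes come from the platform's annotation, in which 34945 probe sets name 1 gene, 932 several and 9160 none. Tests used limma 3.58.1 in R 4.3.3, with 1 mean per group over 12 groups, or on 4 pool means between strains, which takes the replicate number as the pool. Benjamini-Hochberg adjustment ran over all 45037 probe sets, and adjusted p under 0.05 counted as called. Tests were checked on simulated data with independent noise, in which 200 probe sets were shifted. Of those shifted by 1 log2 unit, 26% were called for B6 subsets, 22.5% for NOD groups and 35.5% for MZ minus FO. T1 minus FO gave 29.5% and NOD minus B6 gave 0%. With a shift of 3 log2 units 90% to 98% were called. A probe set that was not called may therefore still differ by about 1 log2 unit. Promoters were searched in Python 3.11.15 and aligned with Biopython 1.88, and figures drawn with matplotlib 3.10.9. The members and lists were chosen with earlier results of these data known. All probe sets of the member genes were described. From each list up to 4 called probe sets with the smallest adjusted p in a comparison were named, and Cmpk2 and Stat2 beyond that rule. The 5 genes most like a member by Pearson's r, each by its most similar probe set, were named too. So were called genes among the first 15 on either side that have a probe set naming them alone. Alternatives were strain-only fits, replicate and pool blocks, a 5' minus 3' beta-actin covariate, quantile normalization and leaving out arrays. Array medians of the other marker lists ran from -0.28 to 0.58 for T cells, -0.10 to 0.22 for dendritic cells and -0.53 to 1.11 for plasma cells.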

Additional observations from a re-analysis of the deposited data

Results flagged for a closer look

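Each of the other subsets was compared with FO in both strains for all 14 probe sets. In 4 cases both arrays of a subset moved one way against FO in B6 and the other way in NOD by label. With 2 arrays per group such a pattern can arise from the spread between arrays alone. Its share over all probe sets was not computed, and the cases share the FO arrays. For Trim34b/Trim34a-A T1 minus FO was -1.69 in B6 and 0.65 in NOD. For Trim34a-A T1 minus FO was -0.81 in B6 and 1.01 in NOD, T3 minus FO was -0.58 in B6 and 0.32 in NOD, and MZ minus FO was -0.77 in B6 and 0.38 in NOD. The difference between strains was not tested in any of them. The NOD subset labels go against the gate transcripts, so these contrasts may not compare the same cells in the strains.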

How the results depend on the processing

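Numbers of probe sets called by limma at an adjusted p under 0.05 depended on the fit. For B6 subsets 637 became 79 with B6 arrays only, 1521 with the replicate block, 1078 with the pool as a random block, 2989 with the 5' minus 3' beta-actin covariate and 252 after quantile normalization, and 359 to 793 with 1 array left out. For NOD groups 797 became 1447 with NOD arrays only, 1946 with the covariate and 1377 after quantile normalization, and 376 to 820 with 1 array left out. For MZ minus FO 254 became 56 with B6 arrays only, 415 with the replicate block, 696 with the covariate and 112 after quantile normalization, and 108 to 187 with 1 array left out. For T1 minus FO 456 became 76, 1174, 2272 and 228 in the same order, 695 with the random block, and 116 to 340 with 1 array left out. For NOD minus B6, 1361 became 18 with the replicate block and ran from 0 to 3433 with 1 pool left out. The count was 0 with either NOD pool left out (limma, with 5120 and 5762 probe sets at an unadjusted p under 0.05). The causes were not tested.

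Replicate numbers gave the pools of a strain, for the strain test and the random block, but were not taken to pair arrays in the subset tests. Replicate differences of B6 FO and MZ correlated at -0.62 to -0.37 with those of the other 4 subsets, and at 0.71 with each other. In NOD the correlations ran from -0.042 to 0.51. With the replicate block, none of the 11 strain calls named for neighbours and lists was kept (limma, adjusted p 0.0612 to 0.124).

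The 9 members lower in NOD by over 1 log2 unit became 6 to 10 under the alternatives, and 7 without the 3 arrays highest in myeloid markers, an alternative chosen after seeing the data. The 5 members with no overlap became 9 with only the 2 B6 arrays like NOD in the 5' control, a count that rises with fewer arrays, 5 without those 3 arrays, 4 after quantile normalization and 5 to 7 with 1 pool left out. Of the single members' strain differences under the alternatives, 18 moved by more than the spread between replicates and 104 did not. With the replicate block the B6 subset test called Trim34b/Trim34a-A and Trim34b/Trim34a-B (limma, adjusted p = 0.027 and 0.00893). Depth does not apply to arrays, and signal over background is unknown here.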
